A study of Mus musculus with 3 samples.

Results

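Nlrp5 is a maternal-effect gene of the mouse oocyte, and its RNA was followed here in ovulated oocytes of 3 litters, each sequenced as 1 library, and no other group was studied here. The gene was the single member of its set. It was looked for in a region of 58 windows of 1 kb, out of 2725738 such windows in the deposited tracks, on chromosome 7 of the mouse build mm9. The oocytes came from superovulated females of mixed strain, were collected by embryonic day 0.5 and were lysed directly. All 3 litters share 1 genotype, LSD1 FL/FL without ZP3::Cre: both copies of the gene for the histone demethylase LSD1 carry sites for Cre, and the transgene that would express Cre in growing oocytes is absent. Total RNA was amplified with the Nugen Ovation kit (SPIA, a linear amplification with a single primer) before Illumina libraries were built. How many females or oocytes each library holds is not given in the sources used here.

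NLRP5, also called MATER, belongs to the NLRP family, whose members carry a nucleotide-binding NACHT domain and leucine-rich repeats. In the mouse oocyte it is a core member of the subcortical maternal complex, which lies beneath the plasma membrane of the egg and contains OOEP, TLE6 and KHDC3 as further core members. The messenger RNA is made while the oocyte grows, and embryos of females without the protein arrest in early cleavage.

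The annotation used here, GENCODE release M21, is of another build than the tracks, so the gene was placed by its exon spacing. The 16 exons of the principal coding transcript (Nlrp5-201, ENSMUST00000015866.13, gene ENSMUSG00000015721.18; 3508 bases, 3333 of them coding) were slid along the whole of chromosome 7. The score of a placement was Pearson's r between exon membership and log2(depth + 1), where depth is the number of alignments over a base. It was 0.87 at the best placement, which puts the transcript at chr7:24170919-24226940 on the forward strand, against 0.60 at the next best one more than 1 kb away. Litters 2 and 3 alone gave the same start, and litter 1 alone gave a start 1 base lower. Slid on its own by up to 100 bases, each of the 14 exons of at least 72 bases had its best fit within 5 bases of that place. Since depth set the place, the contrast of exons with introns below is a description and was not tested.

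Exons 2 to 6 resemble one another, with exons 3 and 6 identical and exons 2 and 4 nearly so, and their sequences are shown because they decide where reads can be counted. They code for the amino-terminal repeats of the protein. Each sequence is from the GENCODE transcript, 5′ to 3′, with capitals at bases that differ from exon 4 in a pairwise alignment. Exon 2 is shown from its start codon.
exon 2 (chr7:24189128-24189197): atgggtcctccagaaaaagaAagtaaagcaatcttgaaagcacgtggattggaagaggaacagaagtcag
exon 3 (chr7:24189804-24189881): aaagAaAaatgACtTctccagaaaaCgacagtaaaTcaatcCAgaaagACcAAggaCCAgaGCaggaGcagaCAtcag
exon 4 (chr7:24192479-24192556): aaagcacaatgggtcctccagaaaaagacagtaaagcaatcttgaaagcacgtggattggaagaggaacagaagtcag
exon 5 (chr7:24193148-24193228): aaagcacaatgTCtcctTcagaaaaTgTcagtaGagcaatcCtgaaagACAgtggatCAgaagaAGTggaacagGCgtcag
exon 6 (chr7:24194956-24195033): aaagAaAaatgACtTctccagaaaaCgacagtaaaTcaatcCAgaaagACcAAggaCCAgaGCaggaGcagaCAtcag
The shared sequence of exons 3 and 6 has 78 bases, or 26 codons. Exon 2 differs from exon 4 at 1 base, C29A, counted from 1 at the exon's 5′ end with the base of exon 4 first. The other 8 pairs of these exons were 71.8% to 79.0% identical.

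Sequencing gave 35183199 alignments for litter 1, 31787887 for litter 2 and 32028802 for litter 3, each covering 72 bases. Litter 3 stood apart: of 10913 windows that averaged 10 CPM (alignments per 1000000 of the library) or more, 1750 differed over 4-fold between the litters beyond Poisson error (16.0% of those tested), and without litter 3 the same test called 95. Among 10 oocyte markers, Zp1, Zp3, Nobox and Oosp1 could be placed by exon spacing. The rule for this needs each litter alone to give the same place, so depth in every litter follows from it. Gdf9, Bmp15 and Mos have fewer than the 3 exons required, and Zp2, Figla and Dppa3 did not pass the other limits. None of 8 markers of cumulus and granulosa cells could be placed, which does not show that they are absent.

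Nlrp5 was well covered in every litter. Summed exonic depth divided by 72 came to 13963, 14183 and 7517 alignments for litters 1, 2 and 3. The level, in CPM per kilobase of exon, was 113, 127 and 66.9 in the same order, with a mean of 102 ± 31.5 (SD, n = 3). With the 100 highest windows left out of the library totals the mean was 162. Litters 1 and 2 lay close together, and litter 3 stood at 0.557 times their mean. Without litter 3 the mean was 120. The coefficient of variation, the SD over the mean, was 0.308 over the 3 litters and 0.0827 over litters 1 and 2. Over the 10913 windows it had a median of 0.384, and 62.3% of windows were above the value of Nlrp5. In such bulk libraries, fewer cells that hold a transcript and less of it per cell cannot be told apart.

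The litters differed more in how often a start position was used than in how many positions were used. Alignments starting in the exons fell on 1522, 1437 and 1291 distinct start positions in litters 1, 2 and 3, an average of 8.92, 9.64 and 5.68 alignments per used position. The most at 1 position was 179, 204 and 135. With each start position counted once, in the gene and in the library total, the level was 88.4, 91.5 and 80.4 in litters 1, 2 and 3 and the coefficient of variation was 0.0661. The exons offer 2411 positions for a read wholly inside them, and the used ones held several alignments on average. Counting each once therefore narrows differences between litters by its nature, and the smaller spread does not show where the difference lies. Repeated starts can be copies made in amplification or separate molecules, which these tracks do not distinguish.

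Depth was almost wholly exonic. The mean exonic depth was 287, 291 and 154 alignments in litters 1, 2 and 3, against 0.433, 0.548 and 0.398 over the 52514 intronic bases. The ratio of the means was 661, 531 and 388, or 9.01 ± 0.39 on the log2 scale (SD, n = 3). Exons held 97.1% ± 0.764 (SD, n = 3) of the depth between the ends of the transcript on 3508 of its bases. Of the exonic bases 97.7% ± 0.734 were covered, and of the intronic bases 4.54% ± 0.859 (SD, n = 3). Counting each start once lowered the log2 ratio to 6.62. A base can then have a depth of at most 72, which the mean exonic depth exceeded in every litter. The ratio therefore falls by the nature of this count, which does not measure copies made in amplification.

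**Figure D1:**
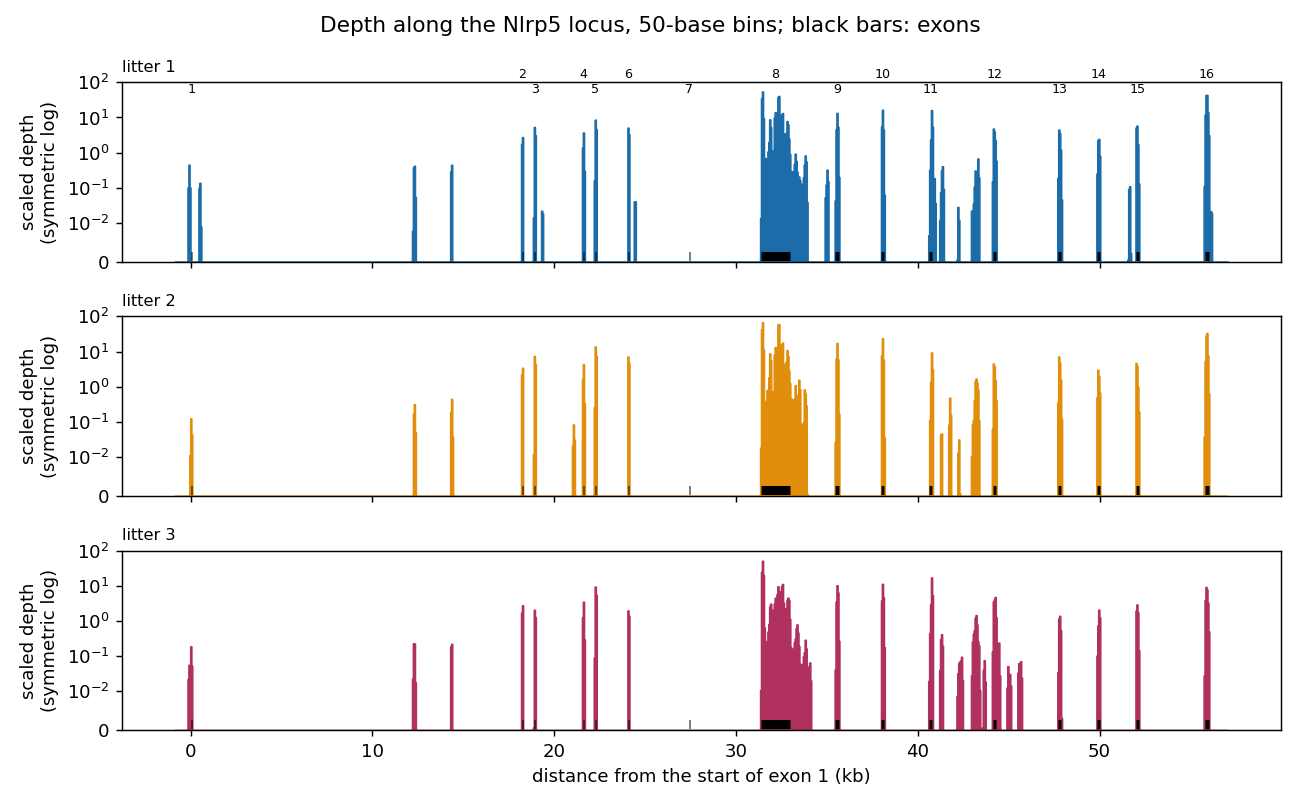
Scaled depth (alignments over a base per 1000000 in the library, symmetric log axis) in 50-base bins along the Nlrp5 region, against distance from the start of exon 1 in kb, with 1 panel per litter; black bars are exons, numbered above. Sharp columns stand over all exons of at least 72 bases in every litter, with no column over exon 7 and low ones near exon 1.

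The edges of the columns followed the splice sites. An alignment of 72 gapless bases cannot cross a junction, so depth must fall at both ends of an exon. At 27 of 28 edges of the 14 exons of at least 72 bases, depth 10 bases outside was under 1% of the exon's mean depth, summed over litters. The exception was the right edge of exon 8. Coverage ran a median of 5 bases past a splice edge. At the 3′ end it stopped 6 bases past the annotated end of exon 16. Exons 1 and 7, of 55 and 48 bases, are shorter than a read and cannot hold an alignment, so their use was not measurable here. Exon 7 had a depth of 0 in each litter. Exon 1 was touched by 0, 4 and 6 alignments in litters 1, 2 and 3, all of which ran past the exon.

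Spliced transcripts in the annotation start either at exon 1 or at exon 2, and these data do not separate them. Upstream of exon 2 the 19119 bases of the region held 61, 31 and 28 whole alignments in litters 1, 2 and 3. Exon 2, which holds the start codon, had a mean depth of 100, 113 and 90.3 alignments. Its left edge was as sharp as those of the exons that follow, with coverage reaching 5 bases outside. Exon 2 differs from exon 4 at 1 base, and their start counts ran close together. Reads of exon 4 may therefore be part of this depth and edge, which do not show exon 2 by itself.

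Identical exons carried identical depth. In exons 3 and 6 the depth was equal at all 234 of 234 bases compared over the 3 litters, and the count was equal at 42 of 42 used start positions. Both exons were touched by 206, 262 and 74 alignments in litters 1, 2 and 3. Each such read was thus reported at both places, and the pair's depth is counted double in the gene's total. Exons 2 and 4, which differ at 1 base, were touched by 110 and 132 alignments in litter 1, 124 and 140 in litter 2, and 99 and 112 in litter 3. Their counts were equal at 23 of 47 start positions and differed by at most 2 at 39. Many reads may thus be reported at both of these exons too, and the share counted double was not measured. Between exons 2 and 3, which differ more, counts were equal at 4 of 45 positions. Exon 5, of 81 bases, had the most alignments of the 5, with 326, 476 and 332.

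**Figure D2:**
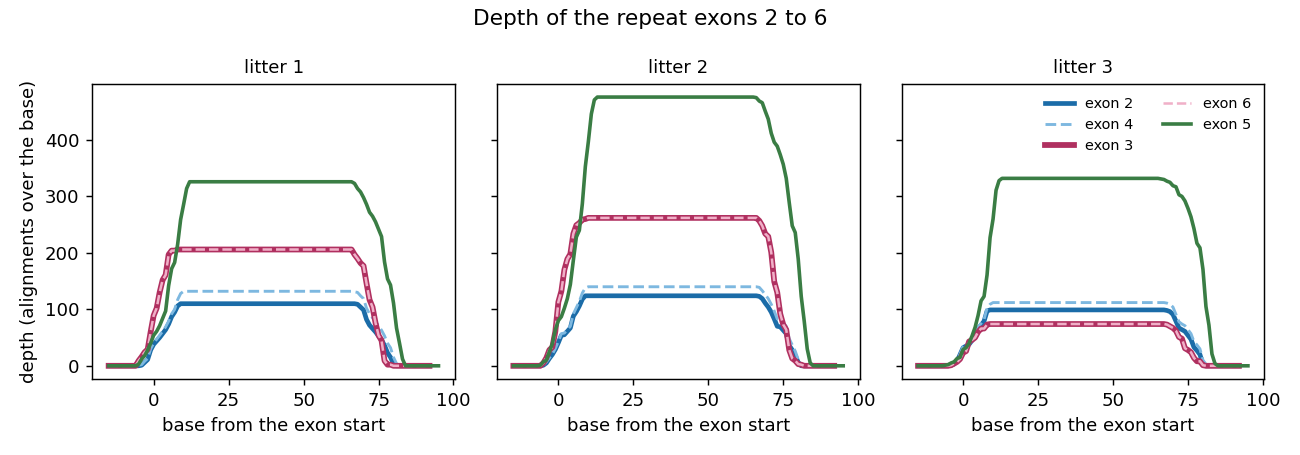
Depth in alignments over each base of repeat exons 2 to 6, against the base counted from the exon start, with 1 panel per litter and 1 line per exon. The lines of exons 3 and 6 coincide in every litter, those of exons 2 and 4 run close together, and exon 5 is the highest.

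Start counts were also searched for repeats across the genome. Of 548 stretches of 3 used start positions in the exons of Nlrp5, each with 50 or more alignments, 54 had the same counts and spacing elsewhere in all litters. All 11 stretches tested in exon 3 recurred in exon 6 and the reverse. The others lay in exon 10 (16 of 36) and exon 12 (16 of 19). Those of exon 10 recurred in reverse on chromosome 7 from base 15178070 to 15178087, and the ones of exon 12 from 15171965 to 15172056. Nlrp5-ps, a pseudogene annotated on the reverse strand of chromosome 7, holds 22 of 97 stretches of 72 bases of exon 10 and 91 of 100 of exon 12 in its transcripts, with further ones in exons 13 and 14. By start counts, 0 stretches of exons 2, 4, 5, 8, 9, 11 and 13 to 16 had the same counts and spacing elsewhere. The search required equal counts in all litters, so it could not find the close but unequal counts of exons 2 and 4. Leaving out the 619 exonic bases (17.6%) in stretches that recur within Nlrp5 or in another gene's transcript gave levels of 122, 135 and 71.4 in litters 1, 2 and 3.

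The exons differed in depth by more than the litters did. In scaled depth (depth per 1000000 alignments of the library), the mean over litters ran from 1.56 ± 0.313 in exon 14 to 14.9 ± 9.49 in exon 16 (SD, n = 3), a 9.56-fold range over the 14 exons of at least 72 bases. Short exons offer few places for a whole read, so the level of the 78-base exons, with 7 possible starts inside each, is not comparable with that of long ones. Exons 9 to 15, which code for leucine-rich repeats, are 168 or 171 bases long and can be compared with one another as to length. Recurring stretches held 46.2% of the alignments of exon 10 and 59.4% of those of exon 12. The depth of these exons may therefore include reads from elsewhere on chromosome 7. Exons 13 and 14 also share stretches of 72 bases with Nlrp5-ps, 42 and 24 of 100. Their sequences are 46.6% to 54.3% identical over 21 pairs. From exon 9 to exon 15 the mean scaled depths were 7.20, 8.29, 6.19, 3.46, 2.59, 1.56 and 2.84. Exon 14 (chr7:24220765-24220935) had the lowest mean, at 1.67, 1.80 and 1.20 in litters 1, 2 and 3, below every litter of exons 9, 10 and 11. In litter 3 alone exon 13 was lower, at 0.907.

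Litter 3 was lowest in most exons but not in all. It had the lowest scaled depth in 11 of the 14 exons, litter 2 in 2 and litter 1 in 1. Exons 3 and 6 were counted although they share reads, and exons 2 and 4 although they may. The highest was litter 2 in 10 exons, and litters 1 and 3 in 2 each. Set against the mean of litters 1 and 2, litter 3 had a median ratio of 0.658 over the exons. The ratio was lowest in exon 16 at 0.255 and in exon 13 at 0.265, and above 1 in exon 11 (1.35) and exon 12 (1.24). Most of exon 12 is shared with Nlrp5-ps, so its ratio may include reads from there. Exon 11 stood at 7.02, 4.05 and 7.48 in litters 1, 2 and 3, so that litter 2 was the low one there.

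**Figure D3:**
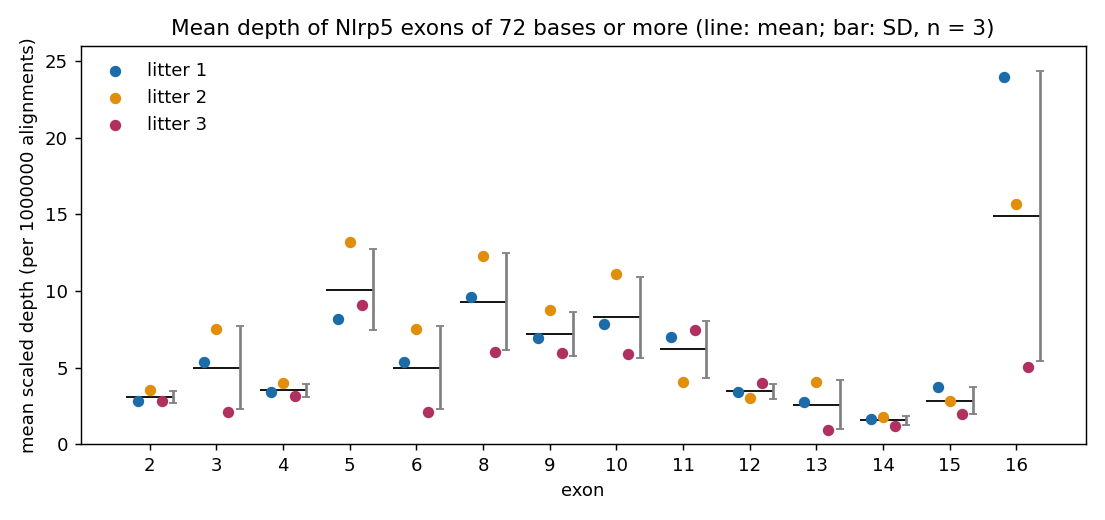
Mean scaled depth (depth per 1000000 alignments) of each Nlrp5 exon of at least 72 bases, with 1 point per litter, the mean as a line and the SD over 3 litters as a bar. Exon 16 has the widest spread, from 5.05 in litter 3 to 24.0 in litter 1, while litters overlap closely in exons 2, 4, 12 and 14.

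Exon 16, the last and the one with the highest mean, differed most between the litters. Its 242 bases (chr7:24226699-24226940) hold the last 130 coding bases and the rest of the transcript. Mean depth was 844, 498 and 162 alignments in litters 1, 2 and 3, or 24.0, 15.7 and 5.05 as scaled depth. The 3 litters were well separated, with litter 3 at the bottom. On 6.90% of the bases, exon 16 took 20.3%, 11.8% and 7.23% of exonic depth in litters 1, 2 and 3. The 95% Wilson intervals were 19.7% to 21.0%, 11.3% to 12.3% and 6.67% to 7.84%. They do not overlap. These intervals cover counting error only, and reads without molecular identifiers are not independent molecules.

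Among windows of 1 kb, 7 of the 58 in the region reached a mean of 10 CPM and were tested for differences between litters. The chi-square test against Poisson error, Benjamini-Hochberg adjusted over all 10913 windows, passed in all 7, as it did in 97.5% of all windows. Poisson error covers counting alone, and neither amplification nor other differences between litters. The window of exon 16 stood at 80.6, 52.6 and 17.0 CPM in litters 1, 2 and 3. It was the only one that also differed over 4-fold (4.64-fold with 0.5 CPM added, adjusted p = 3.3e-289 by the chi-square test), which is 1 of 7 beside the 16.0% of all windows. Without litter 1, and likewise without litter 3, 0 windows of the region were called. The highest window of the gene, in exon 8, ranked 880 of all 2725738, at 125, 171 and 55.4 CPM in litters 1, 2 and 3 (3.06-fold).

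Depth along exon 8 was dominated by narrow peaks at shared places. This exon of 1576 bases (chr7:24202304-24203879), the longest, codes for the NACHT domain among others and held 56.5% ± 3.85 (SD, n = 3) of exonic depth. Divided into 10 equal parts from its 5′ end, it had a scaled depth of 31.3, 38.7 and 30.3 in part 1 in litters 1, 2 and 3, and of 0.552, 0.377 and 0.282 in part 2. The fall was 56.8-fold, 103-fold and 107-fold, in the same place in each litter. Part 1 is shown because the highest peak of the gene lies in it, with capitals at the 59 bases where depth exceeded 50% of the peak in every litter (chr7:24202332-24202390).
exon 8, part 1 (chr7:24202304-24202460): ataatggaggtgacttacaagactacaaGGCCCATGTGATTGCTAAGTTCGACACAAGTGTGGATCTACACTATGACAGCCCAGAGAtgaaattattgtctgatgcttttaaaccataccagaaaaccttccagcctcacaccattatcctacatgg
The peak stood at base 70 of the exon in litters 1 and 2 and at base 73 in litter 3, at 2350, 2636 and 2006 alignments, or 66.8, 82.9 and 62.6 as scaled depth. Alignments starting in the first 40 bases of the exon or just before it numbered 1988, 2237 and 1329, on 45, 46 and 45 distinct positions. No stretch of start counts in this exon recurred elsewhere. The bases G and C made up 42.0% of part 1 and 44.3% of part 2.

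A further peak in exon 8 set litter 3 apart. It reached 1880, 2539 and 358 alignments in litters 1, 2 and 3, at bases 953, 935 and 926 of the exon. As scaled depth these were 53.4, 79.9 and 11.2. The first peak was of similar height in all litters, while this one was several times lower in litter 3. Distinct starts under the further peak numbered 70, 66 and 61 in litters 1, 2 and 3. Alignments of 72 bases can cover a given base from at most 72 start positions. The counts of starts were near that limit in every litter, so they cannot tell what lies behind the lower peak.

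From 5′ to 3′ the transcript showed no steady slope. With the transcript in 10 equal parts, the mean scaled depth was highest in part 2 (16.7 ± 2.70, SD, n = 3), part 5 (15.1 ± 8.78) and part 10 (10.8 ± 6.63). It was lowest in part 3 (2.15 ± 0.888) and part 9 (2.32 ± 0.873), so high and low parts alternated. With the transcript in 3 equal segments, the 3′ segment held 31.9%, 20.7% and 24.0% of exonic depth in litters 1, 2 and 3, with 95% Wilson intervals of 31.2% to 32.7%, 20.0% to 21.4% and 23.0% to 25.0%. The mean, 25.5% ± 5.78 (SD, n = 3), lay below the 33.4% of bases in that segment, and no litter exceeded that share. Gapless reads cannot cross junctions, however, so short exons offer fewer places for a whole read than their bases imply. Exons 11 to 15, which lie in that segment, offer 100 starts on 171 bases each, and exon 8 offers 1505 on 1576. The comparison with the share of bases therefore does not show a lack of reads at the 3′ end. With exon 16 left out of both depths the mean was 14.2%. The 5′ segment took 27.9%, 31.0% and 41.0%, so the share at the 5′ end was highest in litter 3.

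**Figure D4:**
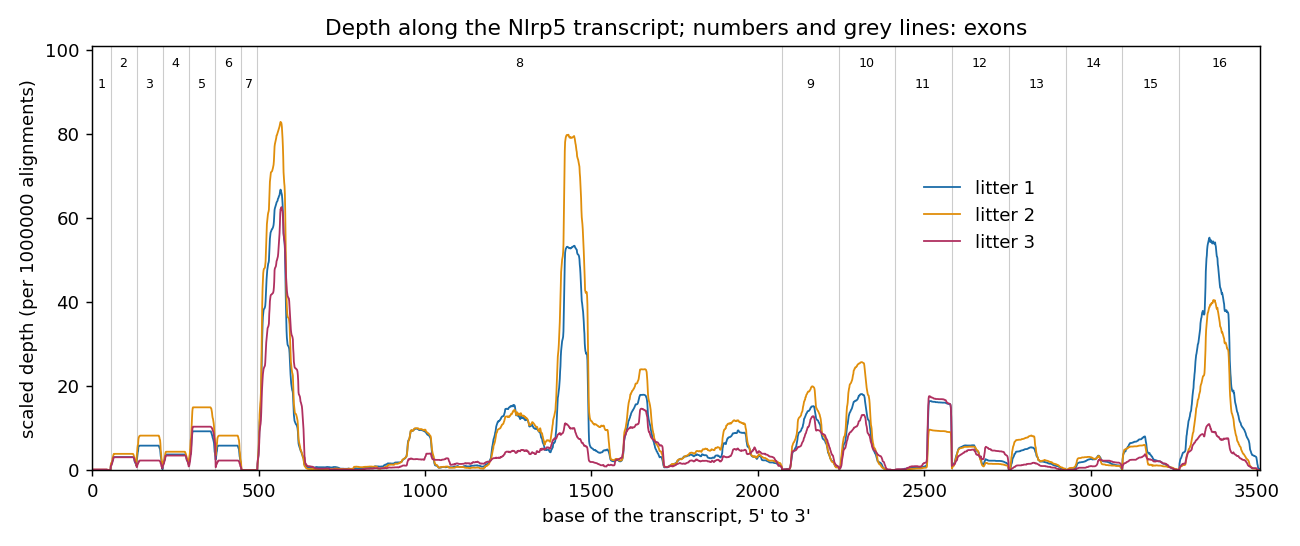
Scaled depth (depth per 1000000 alignments) at each base of the Nlrp5 transcript from 5′ to 3′, with 1 line per litter; grey lines and numbers mark the exons. The main peaks lie at similar bases in all litters, and litter 3 is far below the others in the peak near the middle of exon 8 and in exon 16.

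The shape of the profile was shared more closely by litters 1 and 2. Over the 3508 bases, Pearson's r of log2(scaled depth + 0.1) was 0.96 between litters 1 and 2. Litter 3 reached 0.87 with litter 1 and 0.85 with litter 2. Over the 14 exons r was 0.88, 0.70 and 0.62 for the same pairs. Bases under the same reads are not independent and all share the gene's sequence, so these values only describe likeness.

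Depth in introns lay in few places. Outside the exons and a margin of 72 bases around them, 22 covered blocks lay in the region, 6 with depth in all 3 litters and 15 in 1 litter. Intron 8 had the highest mean depth, 0.137, 0.177 and 0.0804 as scaled depth in litters 1, 2 and 3. That depth lay in the 1306 bases after exon 8 that the annotated retained-intron transcript Nlrp5-206 includes, with a mean depth of 8.35, 10.8 and 4.94 alignments and 72.6%, 62.5% and 68.5% of bases covered. The other 1204 bases of the intron had mean depths of 0.960, 0.000831 and 0.00249. Few alignments bridged the right edge of exon 8 with at least 10 bases on each side: 0, 3 and 2 in litters 1, 2 and 3. Intron 11 followed, at a scaled depth of 0.0482, 0.105 and 0.102, with its largest block at chr7:24213862-24214315 (maximum depth 24, 60 and 55). In intron 1, small blocks at chr7:24183140-24183266 and chr7:24185213-24185319 had maxima of 21, 12 and 11 and of 18, 15 and 9 alignments.

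Annotated variant edges inside exons 14 and 15 were crossed by reads, which in exon 15 shows the longer form. Exon 14 shares 24 of 100 stretches of 72 bases with Nlrp5-ps, so reads across its edge may include some from there. At the shortened end of exon 14 in Nlrp5-204, 85, 82 and 29 alignments ran across with at least 10 bases on each side in litters 1, 2 and 3. At the late start of exon 15 in Nlrp5-203, 90, 24 and 58 did so. No alignment ran at least 10 bases past exon 9 into the 21 bases that Nlrp5-205 adds (0 in each litter), although a read of that form would fit. The shares of these forms cannot be had without junction reads.

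Of 8 genes of the subcortical maternal complex and its known partners, 5 could be placed by exon spacing, and by the mean over litters Nlrp5 stood second among them, behind Nlrp4f, which was higher in litter 3 alone. In CPM per kilobase, Nlrp4f, an NLRP family member, was at 99.1, 99.3 and 199 in litters 1, 2 and 3 (132 ± 57.7, SD, n = 3). Nlrp5 followed at 102 ± 31.5 and Padi6, a peptidylarginine deiminase of the cytoplasmic lattices, at 96.7, 109 and 39.4 (81.8 ± 37.2). The means of Nlrp4f and Padi6 lay within the SD of Nlrp5. Nlrp5 was above Padi6 in every litter, and above Nlrp4f in litters 1 and 2. Tle6, a Groucho-family protein of the complex, was at 40.6, 51.7 and 11.4 (34.6 ± 20.8), below Nlrp5 in each litter. Nlrp2 was the lowest at 13.9, 10.9 and 16.4 (13.7 ± 2.73). Ooep, Khdc3 and Zbed3 have at most 3 exons and could not be placed, so their levels are not reported here.

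The fall in litter 3 was not general to these genes. Litter 3 was the lowest litter for Nlrp5, Padi6 (0.383 times the mean of litters 1 and 2) and Tle6 (0.247 times), and the highest for Nlrp4f (2.01 times) and Nlrp2 (1.32 times). Among all placed genes, the litter profiles most like that of Nlrp5 were those of Nobox, an oocyte transcription factor (52.3, 53.2 and 33.6), and Zp1, a zona pellucida protein (77.9, 69.9 and 46.8). Their shares of the level summed over the 3 litters differed from those of Nlrp5 by at most 3.14 and 5.49 percentage points. Over 3 litters such likeness is a description.

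**Figure D5:**
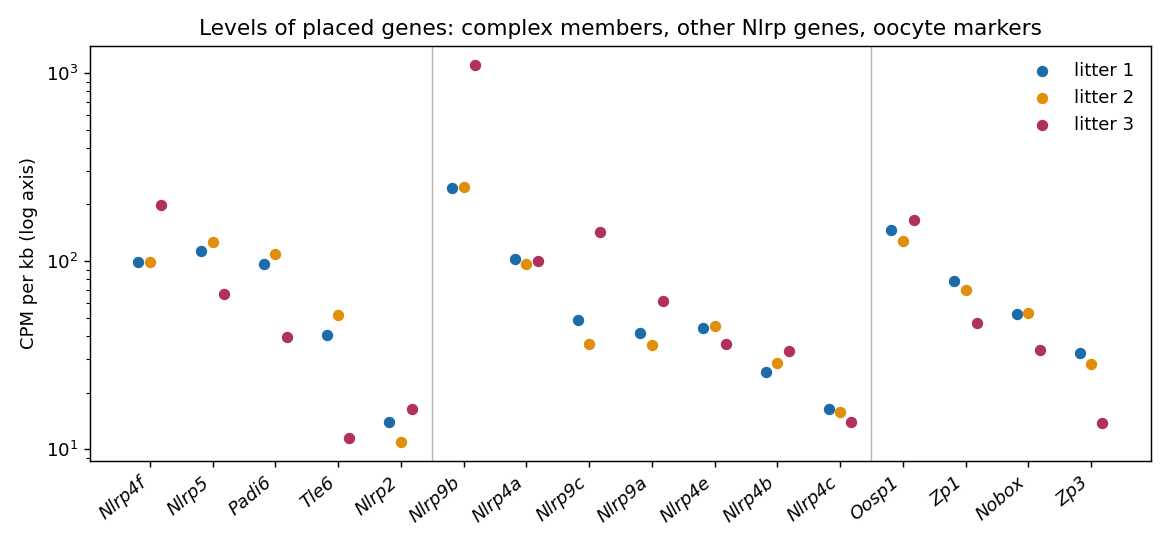
Level in CPM per kb (log axis) of each placed gene, with 1 point per litter; complex members are on the left, other Nlrp genes in the middle and oocyte markers on the right. Nlrp5 lies between 66.9 and 127 with litter 3 lowest, while Nlrp4f and Nlrp9b are highest in litter 3.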

How the data were processed

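RNA-seq coverage of 3 oocyte libraries was analysed. The deposited signal is the number of alignments over each base, with no scaling to the size of the library. Bowtie and the build mm9 are named in the submitters' processing notes. The aligner's version, its filters and how many placements it kept per read are not stated there, and per the file headers each track comes from 1 set of sorted alignments. Isolated blocks at a depth of 1 were exactly 72 bases long in 99.9% of cases, so alignments were taken as 72 gapless bases, and start counts were recovered from the steps in depth (0 negative values). Levels are summed depth over exons / 72, per 1000000 alignments of the library (CPM) and per kilobase. A read placed more than once is counted at every place. Strand is not recorded.

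Genes were placed by exon spacing, searched along chromosome 7 for Nlrp5 and within 5 Mb for the other listed genes. A listed gene counted as placed with at least 3 exons, r of at least 0.5, no placement over 1 kb away above 0.8 times that r, and each litter alone within 5 bases. No coordinate was converted between builds. Named were Nlrp5, all placed genes of the fixed lists, the 2 with the nearest litter profile, and the first, last, longest, highest and lowest exons; other exons, blocks and peaks were chosen after their values were seen. Windows of 1 kb were tested by chi-square against library totals. With 1 group there is no comparison between conditions. The scripts were tested on simulated data. The gene and the lists were chosen with earlier results of these data known. Python 3.11.15, numpy 2.4.6, scipy 1.17.1 and Biopython 1.88 were used.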

Additional observations from a re-analysis of the deposited data

How the results depend on the processing

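The placement of Nlrp5 did not move under other scores, pseudocounts and exon sets or with a litter left out, and moved by 1 base with litter 1 alone. The number of placed complex genes was 5 under each alternative run. The mean level of 102 was 162 with the library total taken without the 100 highest windows, and 90.0 to 120 with a litter left out. The log2 ratio of exon to intron depth, 9.01, was 6.62 with each start position counted once and 6.84 with medians plus 1 alignment. The share of the 3′ segment, 25.5%, was 18.8% with 71 bases at exon edges left out and 14.2% without the last exon, an alternative chosen after seeing the data; the last 50% of the transcript held 40.4%. The coefficient of variation over litters, 0.308, was 0.0661 with each start counted once and 0.0827 to 0.439 with a litter left out, the lowest without litter 3. Windows that differed between litters numbered 1750, and 5781 with a fold limit of 2, 12278 with a mean of at least 1 CPM, and 95 to 1571 with a litter left out, among them 1085 without litter 2. The alternatives change what is counted, and no further cause was tested. Leaving out recurring stretches, exons 2 to 6, exon 1 or the last exon was chosen after seeing the data. The planned check of recurring stretches in a reference genome was not run; transcripts were used in its place. No paired analysis was possible because no second group exists. Depth limits the introns, where most bases had no alignment.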

Other observations

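Other NLRP family genes of the oocyte list showed no common litter pattern with Nlrp5. Of 8 such genes 7 could be placed. Litter 3 was the highest for 4 of them and the lowest for 2. Nlrp9b was at 244, 247 and 1106 CPM per kilobase in litters 1, 2 and 3, with litter 3 at 4.51 times the mean of the other litters, and Nlrp9c at 48.8, 36.4 and 142 (3.33 times). Nlrp4a, whose mean of 99.8 ± 3.27 (SD, n = 3) is close to that of Nlrp5, was nearly level at 103, 96.6 and 99.6. Nlrp4e, placed before Nlrp5 at chr7:24086210-24147295, was at 44.3, 45.0 and 36.3. Genes of this family resemble one another, so reads may be counted at more than 1 of them, and this was not tested for them.

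The displacement between the annotation and the tracks was shared by some placed genes of chromosome 7. Nlrp4a, Nlrp4e, Nlrp9a and Nlrp9c each had their best placement within 2 bases of the displacement found for Nlrp5. The other 4 placed genes on this chromosome, Nlrp2, Nlrp4b, Nlrp4c and Nlrp9b, lay at other displacements.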
